A study of Homo sapiens with 6 samples.

Results

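The 42 genes described here act in DNA replication and mitosis. They were chosen by gene symbol and not by a threshold on their values, though with earlier results of these data known. Of them 20 serve the copying of DNA and 22 mitosis, and all 42 were found among the 57341 named genes of the count table. RNA was sequenced from H295R, an established human adrenocortical carcinoma cell line, in 3 libraries of the parental cells and 3 of H295R-PM-Ptc+ cells, a subpopulation of the same line that was selected by a sort on the Hedgehog receptor Ptch1 at the cell surface and then expanded. Both groups were grown in the same medium without treatment, and differ by the sort and the culture that followed it. The replicates are not described as separate cultures, nor the sorted population as more than a single amplified derivative, so that p-values measure the spread between these libraries, which may be technical. Replicates with the same number share a run code in the labels, 1801, 3001 or 3101, whose meaning is not stated.

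The group names need care. PTCH1, the gene of the protein used for the sort, read 18.5, 22 and 23.4 CPM (counts scaled to a library of equal size, 1e6 counts) in the libraries labelled H295R replicates 1 to 3 and 9.70, 13.1 and 13.8 CPM in those labelled H295R-PM-Ptc+. It was thus the lower of both in the H295R-PM-Ptc+ columns (log2 fold change -0.81, SE 0.147, adjusted p = 0.0207), a call that was lost without H295R replicate 2, H295R replicate 3 or H295R-PM-Ptc+ replicate 2, with values from -0.91 to -0.67. In a table of normalised values that accompanies the study, each column follows the deposited library of the opposite group that shares its run code. The counts cannot tell which names are right, so every direction below is for the libraries as labelled, and every higher and lower between the groups, the shares of all genes included, would turn if the names are exchanged.

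Before a cell divides, the MCM2 to MCM7 ring is loaded onto replication origins by CDC6 and CDT1 and is turned into an active helicase by CDC45 and the GINS complex. DNA polymerases, held on the template by the PCNA clamp, then copy the strands from nucleotides that ribonucleotide reductase and thymidylate synthase supply. Entry into mitosis follows when cyclin B and CDK1 become active, the kinetochores and the spindle sort the chromosomes, and the anaphase-promoting complex starts their separation. In tumours, adrenocortical carcinoma among them, the protein of MKI67 is the usual stain for dividing cells.

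All 42 genes were well measured. The libraries held 23264403 to 25813247 counts, of which the 42 genes took between 0.941% and 1.12%, and no gene had fewer than 803 or more than 29242 counts in a library. Per exon length, in FPKM (the CPM divided by the summed exon length in kb, mean over the 6 libraries), their median level was 50.4, against 4.25 for the 16710 genes tested. The exon length is that of the count table and need not be the length of a single transcript. The lowest of the 42, MCM10, a factor that helps to fire the helicase, had a level of 8.41 ± 1.14 FPKM (SD, n = 6), and 65.9% of the tested genes lay below it. PCNA had the highest level at 213 ± 16.7 FPKM, with NUSAP1, which bundles spindle microtubules, at 209 ± 12.6 and cyclin B1 (CCNB1) at 175 ± 10.2. PCNA and NUSAP1 lay within their spread of each other, and CCNB1 lay below both by more than it. The mitosis genes had a median level of 58.5 FPKM and the replication genes of 34.8 FPKM. The shares of all genes given below are not matched for level, and genes with more counts pass a threshold more readily. Of 10 adrenocortical markers, 9 reached 1 CPM in the libraries and CYP11B1 did not. Endothelial markers reached it in 0 of 5 cases, fibroblast markers in 2 of 7 and immune markers in 1 of 5. The summed level of the adrenocortical markers was 1642 to 1996 CPM in the H295R libraries and 2212 to 2439 CPM in the H295R-PM-Ptc+ ones, that of the fibroblast markers 8.90 to 10.1 and 10.7 to 13.1 CPM. The adrenocortical markers did not rise together. SCARB1, the receptor that takes up cholesterol, read 836, 762 and 851 CPM against 1224, 1255 and 1311 CPM, and of the 9 markers it and CYP21A2, the steroid 21-hydroxylase, were higher at an adjusted p under 0.05 in edgeR, while NR5A1, CYP11A1, CYP17A1, INHA and MC2R had log2 fold changes between -0.41 and -0.06 and STAR and HSD3B2 of 0.41 and 0.01, none of which passed. The endothelial markers summed to 0.197 to 0.335 and 0.509 to 0.648 CPM, the immune markers to 0.809 to 1.34 and 1.68 to 2.00 CPM. THY1, a surface protein listed with the fibroblast markers, was the only one of these other markers to pass, at 0.753, 0.709 and 0.607 CPM against 1.41, 1.81 and 1.86 CPM (log2 fold change 1.29, adjusted p = 0.0175). LUM among the fibroblast markers and PTPRC and CD68 among the immune markers were at 0 in every library. The part of these differences in the results below was not tested.

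The replication and the mitosis genes differ in the letters before their start sites. Promoter windows from 250 bases before to 50 bases after the RefSeq start (GRCh38.p14) were at hand for 36 of the 42 genes, in 44 windows, since some genes have several starts, and were compared with all 35116 windows of the same length. Motifs were searched on both strands, each on its own, and matches of different motifs can share bases. The sequence CCAAT, known as the box of the factor NF-Y, was in 75% of the 24 replication windows and 90.0% of the 20 mitosis windows, against 34.6% of all windows. On the strand of the gene alone the order turned, with 58.3%, 45.0% and 19.6%. TTTGAA, the core of the cell cycle genes homology region of genes that peak in late cell cycle phases, was in 65.0% of the mitosis windows, 4.17% of the replication windows and 15.2% of all windows. The order was the other way for the E2F motif TTTCCCGC, with 29.2% of the replication windows, 0.0% of the mitosis windows and 1.63% of all windows, and on the strand of the gene alone the replication share was 4.17% against 0.86% of all windows. With 20 windows, a share of 0 allows up to 16.8% (exact binomial, 95% interval, counting error only). The related TTTGGCGC was in 16.7%, 5.0% and 0.652%. TATAAA, the TATA box, was in 4.17% of replication, 10% of mitosis and 11.5% of all windows. A match describes letters and not a bound site, and windows of the same gene can overlap.

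The 160 bases before the start of 4 replication genes show these letters, with every match to the motifs above in capitals, written 5′ to 3′ on the strand of the gene. CDC45, MCM6, PCNA and TYMS were chosen because they stand among the replication genes that differed between the groups with the replicates paired.
CDC45 (chr22:19479760-19479919, plus strand): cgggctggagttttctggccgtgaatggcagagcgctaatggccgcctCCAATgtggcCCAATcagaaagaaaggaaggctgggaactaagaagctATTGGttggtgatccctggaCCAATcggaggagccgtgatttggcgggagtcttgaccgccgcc
MCM6 (chr2:135876444-135876603, minus strand): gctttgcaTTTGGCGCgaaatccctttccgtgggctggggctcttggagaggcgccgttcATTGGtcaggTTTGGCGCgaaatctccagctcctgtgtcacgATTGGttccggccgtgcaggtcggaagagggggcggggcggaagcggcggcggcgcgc
PCNA (chr20:5126623-5126782, minus strand): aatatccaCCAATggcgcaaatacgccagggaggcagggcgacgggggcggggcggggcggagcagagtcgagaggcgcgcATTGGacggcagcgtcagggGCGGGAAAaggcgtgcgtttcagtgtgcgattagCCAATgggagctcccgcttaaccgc
TYMS (chr18:657493-657652, plus strand): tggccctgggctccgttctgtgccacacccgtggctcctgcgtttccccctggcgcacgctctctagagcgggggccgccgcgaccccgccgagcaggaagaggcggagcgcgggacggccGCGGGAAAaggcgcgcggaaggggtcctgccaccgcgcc
TYMS shows the E2F motif TTTCCCGC on its other strand 39 bases before the start and none of the CCAAT boxes. PCNA has the same motif at 59 bases among 3 CCAAT boxes, MCM6 has TTTGGCGC at 152 and at 90 bases, and CDC45 has 4 CCAAT boxes and neither E2F motif. For a gene with several windows the first one listed is shown, of 3 for CDC45 and 2 for PCNA. Of the other windows of CDC45, the one over the start of the gene in the count table holds no CCAAT box and a TATAAA on the other strand, and the third holds 3 CCAAT boxes, while the other window of PCNA holds 2 CCAAT boxes and neither E2F motif.

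The same stretch of 4 mitosis genes is shown for contrast, PLK1 as the mitosis gene that was higher between the groups, MKI67 and KIF11 as genes that stood lower in replicate 1, and CCNB2 as a gene without a difference past the threshold in either comparison.
PLK1 (chr16:23678729-23678888, plus strand): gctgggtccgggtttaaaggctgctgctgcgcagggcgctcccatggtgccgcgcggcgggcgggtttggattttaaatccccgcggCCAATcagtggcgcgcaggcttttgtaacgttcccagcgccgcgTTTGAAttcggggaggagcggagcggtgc
CCNB2 (chr15:59104986-59105145, plus strand): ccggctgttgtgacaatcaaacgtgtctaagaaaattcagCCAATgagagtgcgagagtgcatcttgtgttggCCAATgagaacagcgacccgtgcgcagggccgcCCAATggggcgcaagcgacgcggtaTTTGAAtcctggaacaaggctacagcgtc
KIF11 (chr10:92592970-92593129, plus strand): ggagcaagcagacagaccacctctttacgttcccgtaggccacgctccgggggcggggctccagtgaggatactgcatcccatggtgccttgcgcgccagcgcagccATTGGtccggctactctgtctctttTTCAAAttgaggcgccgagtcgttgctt
MKI67 (chr10:128126424-128126583, minus strand): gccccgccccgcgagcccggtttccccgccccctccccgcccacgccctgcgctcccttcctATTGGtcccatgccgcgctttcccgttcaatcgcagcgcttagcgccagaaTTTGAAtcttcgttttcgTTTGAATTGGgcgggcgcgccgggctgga
Within these stretches, PLK1 and CCNB2 carry TTTGAA on their own strand 29 bases before the start, after 1 and 3 CCAAT boxes. KIF11 carries it on the other strand at 28 bases. MKI67 carries it at 47 and at 29 bases, and the nearer match shares a base with a reversed CCAAT box.

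Between the groups, the replication and mitosis genes differed little. Without the pairing of replicates, 0 of the 42 genes passed an adjusted p of 0.05 in edgeR's quasi-likelihood test, against 3.73% of all 16710 tested genes (2.42% higher, 1.32% lower), and 4 had an unadjusted p under 0.05, against 17.3% of all genes. DESeq2 called 1 of the 42 (CDC45, adjusted p = 0.0348), against 5.45% of all genes (3.37% higher, 2.08% lower), and limma-voom called 0, against 3.64% (2.36% higher, 1.28% lower). The estimates were bounded closely, since the 95% interval lay within 0.5 on the log2 scale either side of 0 for 39 of the 42 genes. With the replicate number as a block, which compares same-numbered libraries, 9 of the 42 genes passed, 8 lower and 1 higher in H295R-PM-Ptc+, and all 42 intervals lay within 0.5. The share of all genes past the threshold was then 22.5%, with 10.4% lower and 12.1% higher, beside 21.4% of the 42 genes. The same block in DESeq2 called 3 of the 42, against 11% of all genes (6.1% higher, 4.94% lower), which were CDC45 and TYMS, lower, and PLK1, higher (adjusted p = 9.05e-04, 0.00648 and 0.00572). The calls of MCM6, MCM7, CDC6, PCNA, RFC4 and NUSAP1 were lost there, with adjusted p from 0.0711 to 0.142 and log2 fold changes of the same sign. In RNA of whole cultures, fewer cells in a phase and less RNA of these genes per cell cannot be told apart.

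The replication genes lay almost all on the lower side of 0, the mitosis genes on both sides. Of the 20 replication genes, 19 had a log2 fold change below 0, with a median of -0.12, and RRM2 was the exception. Among the 22 mitosis genes 10 lay below 0, with a median of 0.01, and the median of all tested genes was 0.00. With the block, 7 of 20 replication genes were lower and 0 higher, and 1 of 22 mitosis genes was lower and 1 higher, against 10.4% of all genes lower and 12.1% higher. In DESeq2 with the block 2 of the 20 replication genes were lower, against 4.94% of all genes. In 14 of the 20 replication genes the H295R-PM-Ptc+ library was the lower of each of the 3 same-numbered pairs, in 0 it was the higher of each, against 25.7% of all genes lower and 26.9% higher in each pair. The mitosis genes had 4 lower and 5 higher in each pair, or 40.9% in one direction beside 52.6% of all genes. The groups did not overlap in the same 9 genes that passed with the block, 8 lower and 1 higher, against 11.2% of all genes lower and 12.4% higher. In replicates 2 and 3 alone, 7 of the 42 genes passed (all genes, 12.0%, with 6.67% higher and 5.34% lower), which were CDC6, CDC45, PCNA, RFC4, PRIM1 and TYMS, all lower, and PLK1, higher.

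**Figure D1:**
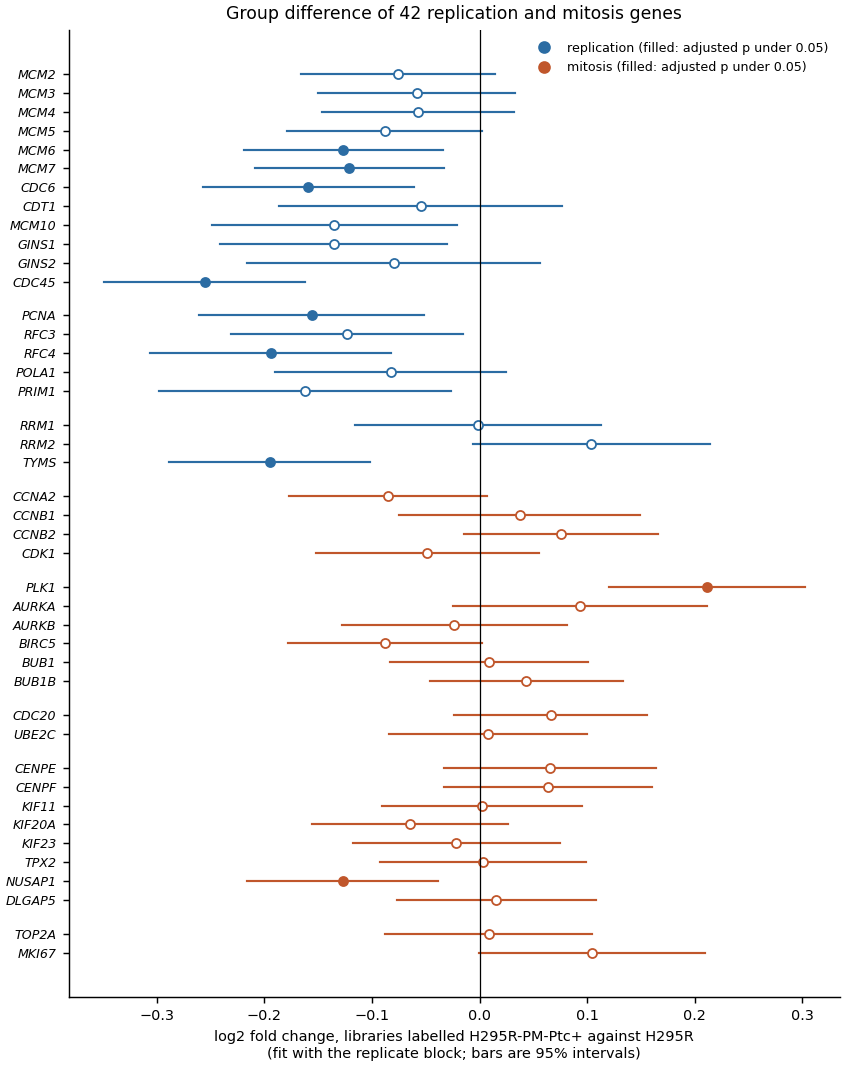
Log2 fold change of the 42 genes, libraries labelled H295R-PM-Ptc+ against H295R, from the edgeR fit with the replicate block (3 against 3 libraries); points are estimates, bars 95% intervals, filled points have an adjusted p under 0.05, and gaps separate the functional groups. All replication genes but RRM2 lie left of 0, the mitosis genes lie on both sides, and without the block no gene passes the threshold.

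The helicase and its loaders were all on the lower side, with 12 of 12 genes below 0 and a median log2 fold change of -0.10. CDC45, which joins the MCM ring to make the active helicase (chr22:19479459-19520612), read, with coordinates here and below those of GRCh38, 125, 125 and 125 CPM in the libraries labelled H295R and 104, 103 and 107 CPM in those labelled H295R-PM-Ptc+. The groups lay well apart and the replicates of each close together. Its log2 fold change was -0.26 (SE 0.0665, adjusted p = 0.0759), which passed with the block (SE 0.0441, adjusted p = 5.77e-04). CDC6, the loader of the ring (chr17:40287633-40304657), read 150, 165 and 159 CPM against 142, 138 and 144 CPM, with every library labelled H295R above every other. Its log2 fold change of -0.16 had an adjusted p of 0.30 without the block and of 0.0213 with it.

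Of the ring itself, MCM6 and MCM7 passed with the block. MCM6 (chr2:135839626-135876426) read 251, 284 and 260 CPM against 231, 247 and 249 CPM, so that the groups did not overlap but came close to each other. The log2 fold change was -0.13 (SE 0.0437 with the block, adjusted p = 0.0477, and 0.469 without it). With libraries left out, the value for MCM6 ran from -0.17 to -0.08. MCM7 (chr7:100092728-100101940) read 363, 361 and 377 CPM against 327, 337 and 348 CPM, again without overlap, with a log2 fold change of -0.12 (adjusted p = 0.0458 with the block, 0.44 without). MCM7 shares 8.94% of its exon bases with AP4M1 on the other strand. The other ring subunits MCM2, MCM3, MCM4 and MCM5 lay between -0.09 and -0.06 and did not pass. MCM10 and GINS1, a subunit of the GINS complex, had log2 fold changes of -0.14 and -0.14 with adjusted p of 0.0847 and 0.0622 with the block. For GINS2 and CDT1, the second loader, values were -0.08 and -0.06, with adjusted p of 0.414 and 0.579.

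The genes of the replicating enzymes lay on the same side, with 5 of 5 below 0 and a median of -0.16. PCNA, the sliding clamp (chr20:5114953-5126626), read 306, 354 and 333 CPM against 304, 294 and 292 CPM. Its groups only just failed to overlap, since H295R replicate 1 stood 306 against 304 CPM beside its partner. The log2 fold change was -0.16 (SE 0.0792, adjusted p = 0.355), and with the block the SE was 0.0491 and the adjusted p 0.0315. RFC4, a subunit of the clamp loader (chr3:186789880-186807058), read 80.1, 87.1 and 76.3 CPM against 75.1, 69.6 and 68.0 CPM. It was lower in each pair, with a log2 fold change of -0.19 (adjusted p = 0.0144 with the block, 0.259 without). RFC3, its partner in the loader, PRIM1, the primase subunit, and POLA1, the polymerase that extends the primer, had log2 fold changes of -0.13, -0.16 and -0.08, and their adjusted p with the block were 0.0961, 0.0812 and 0.271.

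Among the 3 genes of nucleotide supply, TYMS alone passed. TYMS, thymidylate synthase, which makes the thymine nucleotide (chr18:657604-673578), read 299, 313 and 299 CPM against 273, 258 and 265 CPM, with a wide gap between the groups. Its log2 fold change was -0.20 (SE 0.0702, adjusted p = 0.19), and passed with the block (SE 0.0439, adjusted p = 0.00439). On the other strand 26.2% of its exon bases overlap ENOSF1 and TYMSOS. RRM1 and RRM2, the large and small subunits of ribonucleotide reductase, had log2 fold changes of -0.01 and 0.09. With the block their 95% intervals ran from -0.12 to 0.11 and from -0.01 to 0.21.

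The 4 genes of the mitotic cyclins and CDK1 did not pass in either fit. CCNB1, the cyclin that drives entry into mitosis (chr5:69167010-69178245), read 407, 482 and 440 CPM against 470, 445 and 447 CPM, and the groups overlapped. Its log2 fold change was 0.03 (adjusted p = 0.895), with a 95% interval of -0.07 to 0.15 with the block. CCNA2, the cyclin of S phase and early mitosis, had the smallest p of the 4, and read 165, 181 and 172 CPM against 158, 164 and 166 CPM. Each pair was lower, though the groups overlapped (log2 fold change -0.09, adjusted p = 0.621 without and 0.18 with the block). The value for CCNA2 ran from -0.12 to -0.05 with libraries left out. CCNB2 and CDK1, the kinase itself, had log2 fold changes of 0.08 and -0.05.

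PLK1 was the only one of the 42 genes that was higher past the threshold with the block. PLK1, the Polo-like kinase that acts from mitotic entry to division (chr16:23677656-23690367), read 144, 141 and 156 CPM in the libraries labelled H295R and 164, 167 and 179 CPM in those labelled H295R-PM-Ptc+. The groups did not overlap. Its log2 fold change was 0.21 (SE 0.0772, adjusted p = 0.197), with an SE of 0.0429 and an adjusted p of 0.00207 with the block. ERN2 and another gene on the other strand share 12.5% of its exon bases. AURKA, the Aurora kinase of the spindle poles, had a log2 fold change of 0.09 and AURKB, that of the chromosomal passenger complex, one of -0.02. BIRC5, or survivin, of the same complex, had -0.09, and the checkpoint kinases BUB1 and BUB1B had 0.01 and 0.04. For these 5 genes the adjusted p with the block ran from 0.157 to 0.912.

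CDC20, the activator of the anaphase-promoting complex (smallest p of its group), read 173, 183 and 192 CPM against 185, 190 and 198 CPM. Each pair was higher and the groups overlapped, with a log2 fold change of 0.07 (adjusted p = 0.741 without and 0.294 with the block). This value ran from 0.03 to 0.09 with libraries left out. UBE2C, the ubiquitin-conjugating enzyme of that complex, stood at 0.01 with a 95% interval of -0.08 to 0.10 with the block.

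Of the 8 genes of the kinetochore, spindle and motors, NUSAP1 passed with the block. NUSAP1 (chr15:41332694-41381050) read 594, 649 and 637 CPM against 554, 580 and 588 CPM, with the highest library labelled H295R-PM-Ptc+ just below the lowest labelled H295R. The log2 fold change was -0.13 (SE 0.0754, adjusted p = 0.446, with the block SE 0.0418 and adjusted p = 0.0389). The other 7 lay between -0.06 and 0.07, and their adjusted p with the block were 0.313 or more. They are CENPE, the kinetochore motor, CENPF, a large kinetochore protein, KIF11, the motor that pushes the spindle poles apart, KIF20A and KIF23, motors of the central spindle, and TPX2 and DLGAP5, which stabilise spindle microtubules.

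The proliferation marker MKI67 and the topoisomerase TOP2A, which untangles chromosomes, did not pass either. MKI67 (chr10:128096659-128126385) read 412, 725 and 658 CPM against 436, 718 and 780 CPM. TOP2A (chr17:40388516-40417950) read 758, 1151 and 1101 CPM against 814, 1105 and 1087 CPM. In both genes replicate 1 of each group stood far below the other 2 replicates, and the groups overlapped. The log2 fold change of MKI67 was 0.11 (SE 0.245, adjusted p = 0.885), and with the block 0.10 (SE 0.0495, 95% interval -0.00 to 0.21, adjusted p = 0.151). For TOP2A it was -0.00 (SE 0.171, adjusted p = 0.996), with a 95% interval of -0.09 to 0.10 with the block. The sign of MKI67 turned without H295R replicate 1 or H295R-PM-Ptc+ replicate 3, and the value ran from -0.10 to 0.32 with libraries left out.

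**Figure D2:**
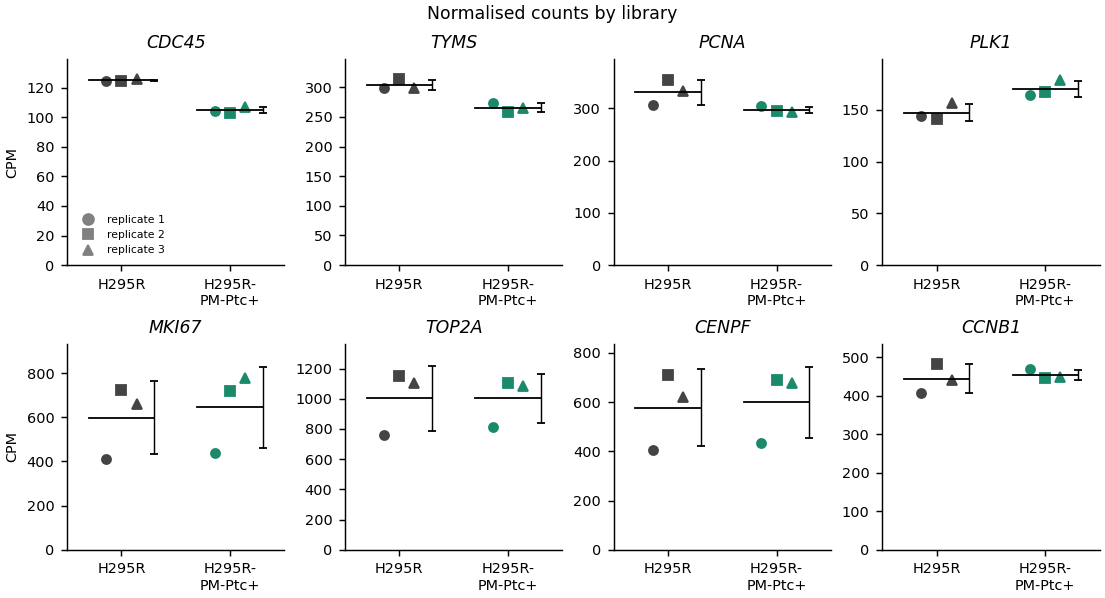
Normalised counts (CPM) of 8 of the genes in each library; symbols mark the replicate number, horizontal lines the mean and bars the SD of 3 libraries. In CDC45, TYMS, PCNA and PLK1 the groups do not overlap, and in MKI67, TOP2A and CENPF replicate 1 lies below replicates 2 and 3 in both groups.

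Summed over genes, the balance of mitosis to replication RNA stood higher in each library labelled H295R-PM-Ptc+ than in its partner. The 20 replication genes summed to 3445, 3903 and 3822 CPM in the libraries labelled H295R and to 3337, 3508 and 3607 CPM in those labelled H295R-PM-Ptc+, lower in each pair. The 22 mitosis genes summed to 5832, 7518 and 7167 CPM against 6117, 7215 and 7301 CPM, higher in replicates 1 and 3 and lower in replicate 2. The ratio of the mitosis sum to the replication sum was 1.69, 1.93 and 1.88 against 1.83, 2.06 and 2.02. It was higher in each pair while the groups overlapped, and no test was made of these sums. The share of all counts on the longest of 5 equal length classes of genes moved along with it, at 24.3%, 27.3% and 27.2% against 25.2%, 28.1% and 28.3%, and its part in the ratio was not tested. With the trend over exon length removed from the fit with the block, 7 of the 42 genes passed, 6 of them replication genes. The share of all genes in that fit was 22.3% (11.6% higher, 10.7% lower). PCNA and NUSAP1 did not pass there (adjusted p = 0.153 and 0.0689).

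**Figure D3:**
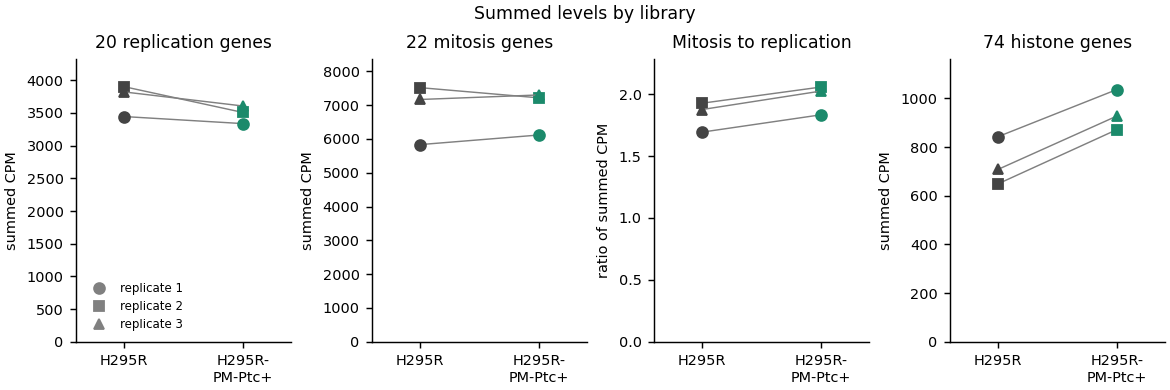
Summed CPM of the replication genes, the mitosis genes and the histone genes, and the ratio of the mitosis to the replication sum, per library; lines join libraries with the same replicate number. In the H295R-PM-Ptc+ member the replication sum is lower and the ratio and the histone sum are higher, in each pair.

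These genes also differed between the replicates. Set against replicates 2 and 3 with the group in the fit, replicate 1 was lower in 17 of the 42 genes and higher in 0, against 16.6% of all genes lower and 30.8% in either direction. The 17 comprised 8 replication and 9 mitosis genes. The median log2 difference was -0.11 for the 22 mitosis genes, whose median between the groups was 0.01, and -0.08 for the 20 replication genes, whose median between the groups was -0.12. Between replicates 2 and 3, 0 of the 42 passed the adjusted threshold in edgeR, against 0.197% of all genes (0.186% higher, 0.012% lower). Of the 42, 5 had an unadjusted p under 0.05, for which the share of all genes was not counted. The first replicate is a single run code, so that what sets it apart from the other 2 cannot be told from the labels.

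The genes with the largest difference were mitosis genes with a long summed exon length. The mean of MKI67 over both groups was 424 CPM in replicate 1 and 720 CPM in replicates 2 and 3, a log2 difference of -0.76 (SE 0.0543, adjusted p = 9.83e-08). CENPE read 73.3 and 74.6 CPM in replicate 1 of both groups and 116 to 128 CPM in the other 4 libraries, and CENPF read 404 and 434 CPM against 619 to 708 CPM. Their log2 differences were -0.71 (SE 0.051) and -0.68 (SE 0.0497). TOP2A followed at -0.50 (SE 0.0491, adjusted p = 1.94e-06). In these 4 genes both replicate 1 libraries lay below all other libraries. Further down stood KIF11 and BUB1B at -0.36 and -0.32, KIF23 and TPX2 at -0.31 and -0.23, and BUB1 at -0.17. Of the replication genes, POLA1 and MCM10 stood at -0.37 and -0.36, RRM1 and RRM2 at -0.34 and -0.33, and MCM4, GINS1, MCM3 and MCM2 between -0.22 and -0.14. CDC45 and TYMS, with -0.00 and 0.01, did not differ past the threshold between the replicates, and their 95% intervals reached 0.10 and 0.11 at most. CENPE, CENPF, POLA1 and the other genes of this paragraph outside the naming rule were chosen after their values were seen.

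Length went with the difference. Over the 42 genes, the difference and the summed exon length had a Spearman coefficient of -0.70, over all tested genes of -0.35, as a description of genes measured in the same 6 libraries. All genes together showed the trend, with medians of 0.14, 0.09, 0.02, -0.03 and -0.15 from the shortest to the longest of the 5 length classes. Of the 20 genes over 4 kb, 15 were lower in replicate 1, against 27.4% of all genes of that length, and of the 22 up to 4 kb 2 were lower, against 3.47%. With the length trend removed, the coefficient over all genes was -0.00 and that over the 42 genes was -0.42. Then 25 of the 42 genes were lower and 0 higher, against 13.3% of all genes lower and 26.9% in either direction, the earlier 17 among them. The log2 differences were then -0.54 for MKI67, -0.57 for CENPE, -0.48 for CENPF and -0.45 for TOP2A. Genes over 4 kb were lower in 16 of 20 cases (all genes, 18.1%) and shorter genes in 9 of 22 (7.43%), so that their shares stood above those of all genes of that length both before and after the correction.

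**Figure D4:**
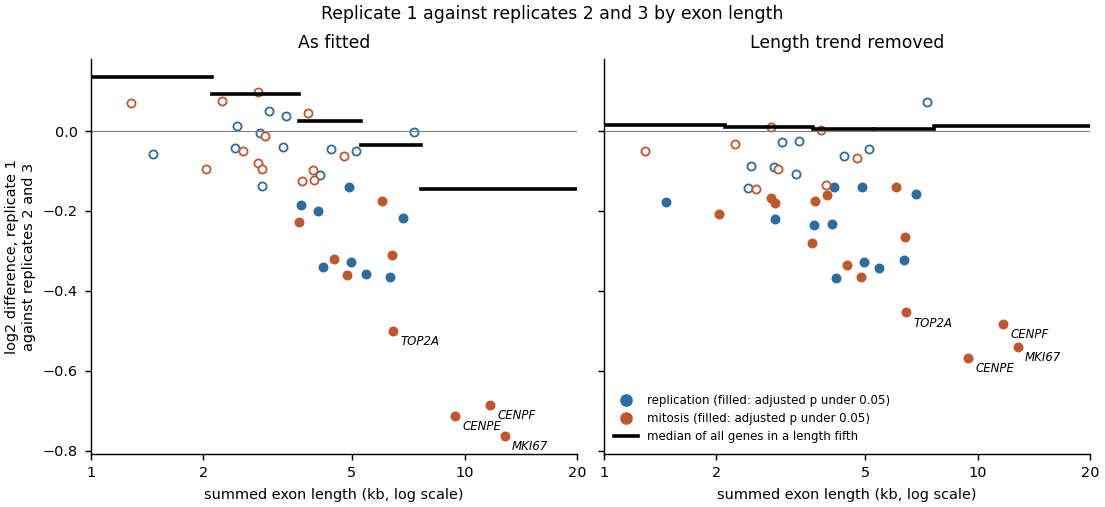
Log2 difference of replicate 1 from replicates 2 and 3 against summed exon length (kb, log axis) for the 42 genes, as fitted and with the length trend removed; filled points have an adjusted p under 0.05 and black lines are the medians of all tested genes in 5 equal classes of length, drawn from 1 to 20 kb. MKI67, CENPE, CENPF and TOP2A lie lowest in both panels, and the lines fall with length only as fitted.

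Other genes of the same pathways were counted from fixed lists. Of 67 further replication genes, 1 was lower without the block and 0 were higher, against 1.32% and 2.42% of all genes. With the block 11 were lower and 1 higher, or 17.9% beside 22.5% of all genes (in DESeq2 5 and 0, or 7.46% beside 11%), while the list's median log2 fold change was -0.08 and 53 of 67 lay below 0. ORC2, a subunit of the origin recognition complex, read 41.9, 49.2 and 49.4 CPM against 33.5, 36.2 and 33.4 CPM. It was lower (log2 fold change -0.45, SE 0.0884, adjusted p = 0.0291), but the call was lost when any library except H295R replicate 1 was left out, with values between -0.52 and -0.41. ORC4, of the same complex, and POLE3, a subunit of the leading strand polymerase, had log2 fold changes of -0.32 and -0.22 and passed with the block only (adjusted p = 7.02e-04 and 0.00117). In replicate 1 against the others, 30 of the 67 were lower and 4 higher, against 16.6% and 14.2% of all genes.

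Of 86 further mitosis genes, 0 passed without the block in edgeR, DESeq2 or limma-voom. In edgeR 9 had an unadjusted p under 0.05, against 17.3% of all genes. With the block 13 were lower and 5 higher, or 20.9% beside 22.5% of all genes (in DESeq2 8 and 2, or 11.6% beside 11%), with a median of -0.01. CENPH, a kinetochore protein, and SGOL1, which guards the cohesion of sister chromatids, had log2 fold changes of -0.28 and -0.33 (adjusted p with the block 6.34e-04 and 1.28e-04). CDC25B, the phosphatase that activates CDK1, stood at 0.19 (adjusted p with the block 0.00691). All 3 missed the threshold without it. In replicate 1, 44 of the 86 were lower and 6 higher, against 16.6% and 14.2% of all genes.

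Among 31 tested genes of cell cycle exit and cyclin D, 0 passed without the block in edgeR, against 3.73% of all genes, and 9 had an unadjusted p under 0.05, against 17.3%. DESeq2 called 2 of them, against 5.45%. With the block 7 were higher and 5 lower, against 12.1% and 10.4% of all genes, and in DESeq2 with the block 2 and 4, against 6.1% and 4.94%. CCND2, cyclin D2, read 112, 136 and 133 CPM against 82.0, 104 and 98.8 CPM and CDKN1A, the CDK inhibitor p21, 114, 91.6 and 101 CPM against 146, 120 and 135 CPM. In both genes the groups did not overlap. Their log2 fold changes were -0.42 and 0.38 (adjusted p = 0.0809 and 0.0882, with the block 5.56e-06 and 1.32e-05), and GADD45A, a stress gene that slows the cycle, had 0.34 (adjusted p = 0.147, with the block 0.00918).

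The replication-dependent histone genes, whose RNAs are made in S phase and mostly lack a poly(A) tail, lay mostly above 0. Of 74 listed genes 45 were tested, and 5 were higher and 0 lower, or 11.1% beside 2.42% of all genes higher. With the block 15 were higher and 0 lower, against 12.1% and 10.4% of all genes, and the median was 0.31. DESeq2 with the block called 8 of the 42 histone genes it gave an adjusted p, all higher, against 6.1% of all genes. The 74 genes summed to 842, 649 and 708 CPM in the libraries labelled H295R and to 1036, 872 and 927 CPM in those labelled H295R-PM-Ptc+, so that the groups did not overlap. HIST1H1C, a linker histone, read 166, 142 and 153 CPM against 264, 234 and 247 CPM. Its log2 fold change was 0.69 (SE 0.087, adjusted p = 0.00324) and it passed with each library left out in turn. HIST1H2BJ, HIST1H2AC, HIST2H2AA3 and HIST1H2BG had log2 fold changes of 0.58, 0.64, 0.46 and 0.90, and the list's count fell to 1 when any library but H295R replicate 1 was left out and was 9 without that one. In replicate 1, 16 of the 45 histone genes were higher and 0 lower, against 14.2% and 16.6% of all genes, while the members that passed there were lower. Histone genes have near-identical copies and multiply mapped reads were counted, so that values of single histone genes are uncertain. The labels name poly(A) RNA and the methods an mRNA kit, so that histone RNA without a tail may be largely missing from these counts. The counts are therefore no measure of S phase, and the share of histone RNA that they hold was not tested.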

How the data were processed

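RNA of 3 parental H295R and 3 H295R-PM-Ptc+ libraries was sequenced in paired reads (the labels name a stranded total RNA kit with poly(A) RNA as the molecule, the methods a stranded mRNA kit). The authors aligned the reads with STAR 2.4.0a to hg38 and deposited raw counts per gene name from featureCounts (Subread 1.5.0-p3 per the labels, the methods name another version) on the Ensembl GRCh38 annotation, with multiply mapped reads included at their primary alignment. The stated strand option is the forward one, while such kits mark the reverse strand. The 42 genes hold high counts whether or not another gene overlaps them, and how far overlapping genes on opposite strands are kept apart is uncertain. Rows named as pseudogenes of a member (15 rows, 8 members) held at most 0.258% of its counts, and the members that share exon bases with another gene number 2 on the same strand and 11 on the other. The table held 1 row with no gene name and 0 counts, which was left out.

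Groups and replicates come from the labels. Genes were filtered with filterByExpr (16710 left), scaled by TMM and compared with edgeR 4.0.16 by the two-sided quasi-likelihood F-test with Benjamini-Hochberg adjustment over all tested genes, 3 against 3. An alternative fit had the replicate number as a block. Same-numbered libraries were paired because they share a run code. Their deviations from the group means correlated at 0.497, 0.307 and 0.228 for replicates 1, 2 and 3. Pairs of replicates 2 and 3 with different numbers correlated at 0.150 and 0.109, and replicate 1 with another number at -0.35 to -0.25. Deviations within a group add to 0, so these values depend on each other. For replicates 2 and 3 the pairing rests mainly on the run code. Replicate 1 was set against the mean of replicates 2 and 3 in a model with the group. To remove the trend over exon length, the log ratio of each library was smoothed over log exon length (lowess, span 0.3) and entered as an offset. CPM use the TMM-scaled library sizes, FPKM the summed exon length, and SD are over libraries. Other alternatives were RLE size factors, DESeq2 1.42.0, limma-voom 3.58.1, other count filters and leaving out libraries. The scripts were tested on simulated counts.

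The members and all gene lists (further replication genes, further mitosis genes, cell cycle exit and cyclin D genes, replication-dependent histones, markers of other cell types) were chosen with earlier results of these data known. Values per library are given for PTCH1, MKI67, PCNA, TOP2A and CCNB1, for members with an adjusted p under 0.05 in the fit without or with the block, and for the member of each functional group with the smallest p. From each further list up to 5 genes past the threshold were named, or the 3 with the smallest p where fewer than 3 passed. Depth was 23264403 to 25813247 counts, and intervals on motif shares are exact binomial ones. Promoter windows are those of RefSeq, and none was at hand for AURKA, BIRC5, MCM4, MCM5, TPX2 and UBE2C.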

Additional observations from a re-analysis of the deposited data

How the results depend on the processing

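The replicate block changed most calls. Members past an adjusted p of 0.05 numbered 0 without it and 9 with it (7 replication, 2 mitosis), and with the block the count was 3 (2 and 1) in DESeq2, 9 (7 and 2) in limma-voom (22.2% of all genes), 9 (7 and 2) with RLE size factors (22.8%) and 7 (6 and 1) with the length trend removed, these 4 added after the data were seen. Without the block it was 1 (1 and 0) in DESeq2. The block gave 3758 genes in all, 12 further replication genes, 18 further mitosis genes, 12 of cell cycle exit and cyclin D and 15 histones, and in DESeq2 with the block 1774, 5, 10, 6 and 8. No filter on low counts gave 1111 genes, 2 of cell cycle exit and 8 histones, and DESeq2 gave 2 of cell cycle exit. With libraries left out, including replicate 1 of both groups together, the counts ran from 0 to 7 members (0 to 6 replication, 0 to 1 mitosis), 219 to 810 genes with single libraries left out and 2013 without replicate 1 of both groups, 0 to 5 further replication genes, 0 to 10 further mitosis genes, 0 to 5 of cell cycle exit and 1 to 11 histones, with the upper ends of the lists without replicate 1 of both groups. Leaving out any single library gave 0 members. Members lower or higher in replicate 1 ran from 13 to 23.

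The median log2 fold change of the replication members stayed below 0 with each library left out (-0.18 to -0.09), that of the mitosis members did not keep its sign (-0.09 to 0.06). PTCH1 ran from -0.91 to -0.67. TOP2A turned sign, with a log2 fold change of 0.0094 in limma-voom, 0.00028 under the filter of 10 counts per library and 0.0085 with the block, and ran from -0.17 to 0.12 with libraries left out. CCNB1 stood at -0.048 without replicate 1 of both groups and from -0.024 to 0.10 with single libraries left out, and MKI67 ran from -0.10 to 0.32. On the gene's own strand only, CCAAT was in 58.3% of replication and 45.0% of mitosis windows, against 19.6% of all, and of replication windows 4.17% held TTTCCCGC, 0.0% TTTGAA and 0.0% TATAAA. The cause of these changes was not tested. Each member had 803 or more counts in each library. The run that sets replicate 1 apart, what its code stands for, and the order of the group names could not be settled from these counts.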
